A study of Arabidopsis thaliana with 2 samples.

Results

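miR414 and miR416 are a pair of Arabidopsis thaliana loci that are catalogued as microRNA genes and whose status as such is in doubt. They were taken as every tag listed under the precursor names mir414 and mir416, which makes 2 of the 151 precursors in the files, with the mir405 copies counted as 1. The pair was chosen by where the 5′ ends of their tags lie and by their shares of the libraries, with these values already known, so those values are given as a description. The tags came from SPARE, in which an adaptor is joined to the free 5′ ends of RNA. Each fragment is copied from a primer placed downstream in its precursor. The 5′ end of a tag thus marks a free 5′ end of the RNA in the sample. How that end arose cannot be told from the tag alone. There was 1 library of the mutant that the labels call fiery, with no allele given, and 1 library of wild-type Col-0. Both were made from rRNA-depleted total RNA of a mixture of seedlings aged 2 weeks with leaves and inflorescences of plants aged 5 weeks. Growth was at 23 °C with 16 h of light for both. The fiery library held 33192 reads and the wild-type library 12129 reads. No difference between the libraries can be checked against replicates. Intervals are exact Clopper-Pearson 95% intervals, or exact conditional binomial ones for ratios. They account for counting error alone: the reads carry no molecular identifiers, and PCR copies of a molecule are not independent.

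Plant microRNAs are cut out of a hairpin by a Dicer-like enzyme, mostly DICER-LIKE1, which makes a pair of staggered cuts on the loop side and on the base side of a short duplex. Each cut leaves a 5′ end at a fixed place: the first base of a strand of the duplex, or the first base after it. Where both strands are cut, only ends on the 3′ arm of the hairpin, nearer to the primer, stay joined to the primer site. A precursor that is cut in this way therefore gives tags stacked at the 3′ arm positions. Positions on the 5′ arm were counted as well. Ends that arise in other ways have no such fixed place. Several loci with numbers in this range entered the catalogue from computational prediction.

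The annotated mature RNAs are shown here as DNA, from the TAIR10.1 genome and its RefSeq annotation, with the seed (bases 2 to 8) in capitals, because their composition bears on how well tags can be placed.
miR414: tCATCTTCatcatcatcgtca
miR416: gGTTCGTAcgtacactgttca
Their seeds differ. The loci are shown from the first base of the annotated precursor to the 3′ end that most tags share, with the mature RNA in capitals, so that the ends can be read against it.
MIR414 locus: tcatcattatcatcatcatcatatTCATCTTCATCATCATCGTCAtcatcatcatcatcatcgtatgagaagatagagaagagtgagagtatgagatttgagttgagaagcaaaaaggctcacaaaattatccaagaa
MIR416 locus: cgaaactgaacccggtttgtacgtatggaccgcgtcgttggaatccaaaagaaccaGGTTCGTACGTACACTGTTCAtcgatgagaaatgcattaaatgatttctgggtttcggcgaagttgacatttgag
MIR414 (AT1G67195) lies on the minus strand of chromosome 1, and the sequence shown covers chr1:25137426-25137563. Its precursor is 108 nt long and carries the mature RNA at nt 25 to 45, on the 5′ arm. MIR416 (AT2G16145) lies on the plus strand of chromosome 2, and the sequence shown covers chr2:7008520-7008650. Its precursor is 80 nt long and carries the mature RNA at nt 57 to 77, on the 3′ arm. Both loci are intergenic, with 0 other annotated genes overlapping them. MIR416 sits between the pseudogenes AT2G16140, 280 nt to its left, and AT2G16150, 605 nt to its right. The nearest genes to MIR414 are the protein-coding AT1G67190, at 2985 nt, and the long non-coding AT1G08907, at 1525 nt.

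None of the miR416 tags began at a duplex cut or anywhere inside the annotated precursor, in either library. Every miR416 tag ended at the same base, nt 131 (chromosome 2, position 7008650), 51 nt past the end of the precursor. A shared 3′ end in tags below the read-length limit was taken to mark the outer end of the primer. The primer sequences themselves are not used here. The 5′ ends lay at nt 95 to 106, which is 15 to 26 nt past the precursor and 17 to 28 nt past the nearest cut. The tags that carried most reads are shown with the bases before the main end in capitals, since they form a ladder of ends against 1 fixed 3′ end.
miR416, 26 nt: gggtttcggcgaagttgacatttgag
miR416, 27 nt: Tgggtttcggcgaagttgacatttgag
miR416, 29 nt: TCTgggtttcggcgaagttgacatttgag
miR416, 33 nt: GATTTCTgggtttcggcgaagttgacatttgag
The tag of 26 nt, with its 5′ end at chromosome 2, position 7008625, was the main one, with 147 of 233 reads in fiery and 95 of 198 in wild type. The tag of 29 nt followed in both libraries, with 42 and 30 reads. The tag of 27 nt had 20 reads in fiery and 26 in wild type, and the tag of 33 nt had 5 and 20. In both libraries the end nearest to the primer thus had more reads than any other. The tag of 31 nt had 9 and 13 reads, the tag of 30 nt 4 and 1, the tag of 28 nt 3 and 3, the tag of 32 nt 1 and 4, and the tag of 35 nt 2 and 1. A tag of 37 nt had 5 reads in wild type, a length at which the fiery library lists no tag of any precursor.

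The shortest tags in both files are 26 nt long, so the main miR416 end is also the last one that could be seen before the primer. Tags of 26 nt held 1.81% of all fiery reads and 13.6% of all wild-type reads. Within miR416 their share was 63.1% (56.5 to 69.3) in the fiery library and 48.0% (40.8 to 55.2) in the wild-type one. The order of the libraries was thus opposite to that over all precursors. miR416 alone gave 24.5% of the fiery reads of this length, where only mir405 gave more, and 5.76% of the wild-type ones, behind mir172a and mir405. The 33 nt tag went the other way, with 2.15% (0.700 to 4.94) of the miR416 reads in fiery and 10.1% (6.28 to 15.2) in wild type. All 9 ends seen in fiery were also seen in wild type, where they held 193 of the 198 reads. The sharing of ends at other precursors was not counted, so this overlap has no background to be set against.

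Cuts of the miR416 duplex would have given fragments that the assay could read. An end at the first base of the mature RNA (nt 57) would give a fragment of 75 nt to the primer end, and an end at the first base after it (nt 78) a fragment of 54 nt. The other strand of the duplex was placed at nt 9 to 33, on the 5′ arm, by the predicted fold. Its ends would give fragments of 123 and 98 nt only from RNA left uncut on the 3′ arm. All of these are longer than the read-length limits (40 nt for fiery, 50 nt for wild type) and would appear as tags of full length. miR416 had 0 full-length tags in both libraries. At the cuts, a count of 0 has a 95% upper limit of 1.57% in fiery and 1.85% in wild type.

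**Figure D1:**
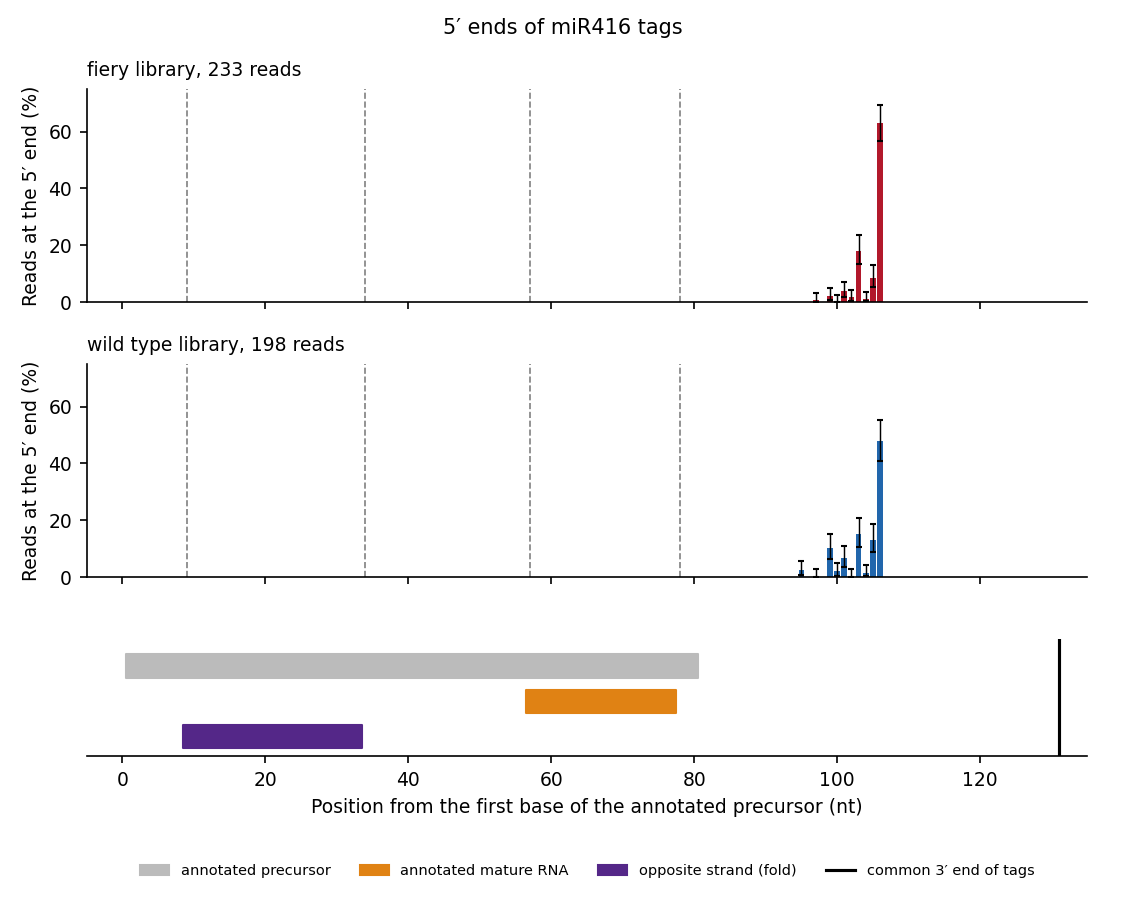
Share of miR416 reads (%) at each 5′ end in fiery (233 reads) and wild type (198 reads), by position from the first base of the annotated precursor, with 95% Clopper-Pearson error bars. Dashed lines are the 5′ ends that duplex cuts would leave, and the bottom panel shows the precursor, the mature RNA, the opposite strand from the fold and the shared 3′ end of the tags. All ends lie at nt 95 to 106, between the precursor and that 3′ end, and none lies at a dashed line.

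miR414 gave a different picture. Its wild-type reads were spread over 29 ends, and its 13 fiery reads lay at 13 different ends, 1 read each. No end was shared by the libraries, but 13 fiery reads could show few of the ends. The fiery library also lists no tag of 36 to 39 nt, so the wild-type ends at nt 101 and nt 103 could not be seen there. How often libraries share ends over all precursors was not counted. In wild type, 110 of 119 reads (92.4%, 86.1 to 96.5) began after the last base of the mature RNA. In fiery, 3 of 13 did (23.1%, 5.04 to 53.8). Tags at the MIR414 locus are shown because their 3′ ends differ, with the last 10 bases in capitals where a tag ended well short of the common 3′ end.
miR414, wild type, main tag, 12 reads: caaaaaggctcacaaaattatccaagaa
miR414, wild type, 2 reads: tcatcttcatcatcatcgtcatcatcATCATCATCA
miR414, wild type, 2 reads: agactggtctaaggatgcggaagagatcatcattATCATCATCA
miR414, fiery, 1 read: catcatcgtcatcatcATCATCATCA
miR414, fiery, 1 read: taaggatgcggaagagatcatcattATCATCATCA

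The common 3′ end of miR414 tags was nt 138 (chromosome 1, position 25137426), 30 nt past the precursor, and 69 of the 74 wild-type reads below the length limit stopped there. Of the other 5, 1 stopped at nt 137, 2 at nt 60 and 2 at nt 18. In fiery, all 3 reads below the limit stopped at nt 60 (2 reads) or nt 18 (1 read). The tags that stopped at nt 60 or nt 18 share their last 10 bases, a run of the CAT repeat that fills the 5′ part of the locus. In the files, 3 fiery and 2 wild-type tags below the length limit end in these 10 bases, and all were listed under mir414. The fiery tags of 26 and 30 nt that stopped at nt 60 matched the genome at 6 and 4 places, so that their origin at MIR414 is uncertain. The remaining miR414 tags and all miR416 tags had a single match. All tags of both loci lay on the strand of the annotated precursor.

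The main miR414 end in wild type was nt 111 (position 25137453), 28 nt from the primer end, with 12 reads. Close to it, nt 112 had 11 reads and nt 113 had 6, while nt 107 had 10 and nt 106 had 9. Farther up, nt 89 and nt 79 had 9 reads each and nt 82 had 6. The main end held 10.1% of the reads. It was the smallest share of a main end among the 45 wild-type precursors of 30 or more reads, whose median was 57.1%, and 29 was the largest number of ends, against a median of 7. Some tags came from outside the hairpin: 5 wild-type reads began upstream of the precursor, at up to 202 nt, and 4 fiery reads did, at up to 477 nt.

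At the cuts of the miR414 duplex there were few reads. The 2 wild-type reads at the first base of the mature RNA (nt 25) are those of the 36 nt tag shown above, which stopped at nt 60 and not at the common 3′ end. The first base after the mature RNA (nt 46) had 0 reads within 1 nt. Both positions lie on the 5′ arm, where an end is joined to the primer site only in RNA left uncut on the 3′ arm. The other strand of the duplex, placed at nt 70 to 90 by the predicted fold, had 3 wild-type reads at nt 69 and 1 at nt 71, and 0 at nt 70 itself. The first base after that strand (nt 91) had 1 fiery read. In wild type a fragment from nt 91 would be 48 nt long, a length at which that library lists no tag, so that this cut could not be seen there. Together the cuts on both arms held 6 of 119 wild-type reads (5.04%, 1.87 to 10.7) and 1 of 13 fiery reads (7.69%, 0.195 to 36.0). The wild-type count includes the 2 reads at nt 25. The wild-type share depended on the window: it was 1.68% at the exact positions and 15.1% within 2 nt, where nt 89 with its 9 reads and nt 68 with its 3 count as well. That share is therefore not a stable value.

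**Figure D2:**
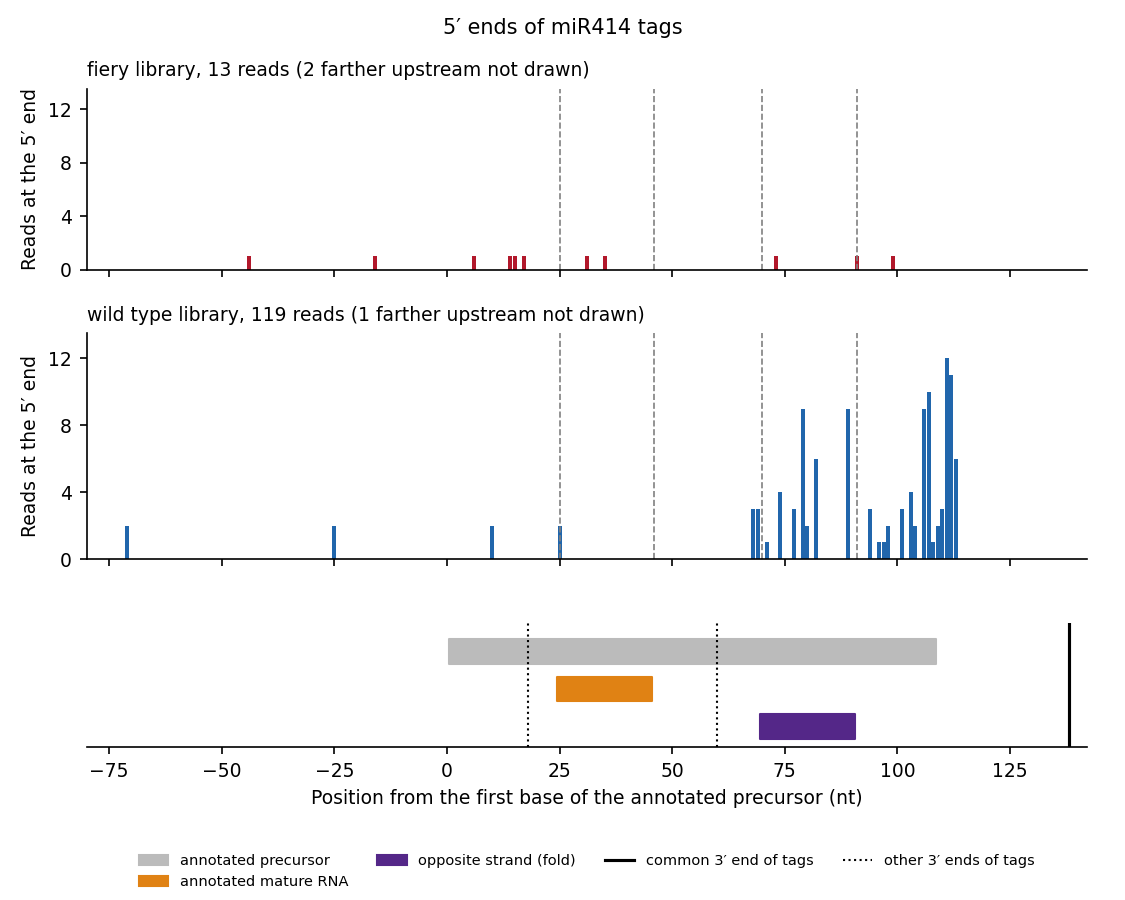
Number of miR414 reads at each 5′ end in fiery (13 reads) and wild type (119 reads), by position from the first base of the annotated precursor; 2 fiery reads and 1 wild-type read farther upstream are not drawn. Dashed lines are the 5′ ends that duplex cuts would leave, and dotted lines in the bottom panel are the other 3′ ends, at nt 18 and nt 60. Most wild-type ends are scattered from nt 68 to nt 113, with 12 reads at the highest, and fiery ends have 1 read each.

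Ends next to the primer were counted as those whose fragment to the primer end is at most 30 nt long. For miR416 they held 216 of 233 reads in fiery (92.7%, 88.6 to 95.7) and 155 of 198 in wild type (78.3%, 71.9 to 83.8). Just inside the limit, at 30 nt, lay 4 fiery and 1 wild-type reads, and just outside, at 31 nt, 9 and 13. For miR414 they held 34 of 119 wild-type reads (28.6%, 20.7 to 37.6), which are the same reads that began past the end of the precursor. None of the 13 fiery reads was there (0%, 0 to 24.7). This share was measured to nt 138, and the 2 fiery tags that stopped at nt 60 were themselves 26 and 30 nt long. Whether nt 60 or nt 18 marks a further primer was not tested. The miR416 share was the highest of the 53 fiery precursors that had 30 or more reads on the precursor strand and an inferred primer end, whose median was 0.402%. In wild type 6 of the 42 such precursors had a higher one, and the median was 9.61%. Loci with at least 50% of their reads next to the primer made up 5.66% of these precursors in fiery and 26.2% in wild type. The inferred primer end is doubtful for some precursors. Relative to the precursor end it lay at -330 nt for mir169k, -1527 nt for mir848 and 831 nt for mir396b. The median over 119 precursors was 36 nt. For such loci the share may not measure a distance to the primer, which limits the rank, the medians and these percentages.

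Set against precursors with well known cuts, miR416 lay at the other extreme. mir168a, whose product targets ARGONAUTE1, had 98.2% at a cut in fiery and 93.4% in wild type, and 0.102% and 0.724% next to the primer. mir398b, whose product targets copper and zinc superoxide dismutases, had 93.2% and 92.0% at a cut. Their base-side cuts give fragments of 52 and 51 nt, close to the 54 nt that the matching miR416 cut would give, so these primers lay at about the same distance. Precursors with 0 reads at any cut made up 8.77% of the 57 loci with 30 or more reads on the precursor strand in fiery, and 24.4% of 45 in wild type. This feature of miR416 was thus shared by 4 other fiery and 10 other wild-type precursors, which were not all alike in other ways. In wild type mir161 had 100% of its ends inside the precursor and 0% next to the primer. Its annotated mature RNAs, miR161.1 and miR161.2, both begin in the 5′ part of the precursor. Cuts on the other strand were not placed for it, so its 0 reads at a cut leave them out. The inferred primer end of mir169k lay upstream of its precursor, at nt -117. Those with 0 ends inside the annotated precursor were rarer, at 3.51% in fiery and 4.44% in wild type. Besides miR416 these were mir169k in fiery and mir845b in wild type. This count depends on where the primer lies. The inferred primer end of miR416 was 51 nt past the precursor, against a median of 36 nt, and only 7 of 119 precursors had it farther. Ends next to that primer therefore fall outside the precursor. The primer end of mir405 was 8 nt past its precursor, and 100% of its ends lay inside in both libraries.

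**Figure D3:**
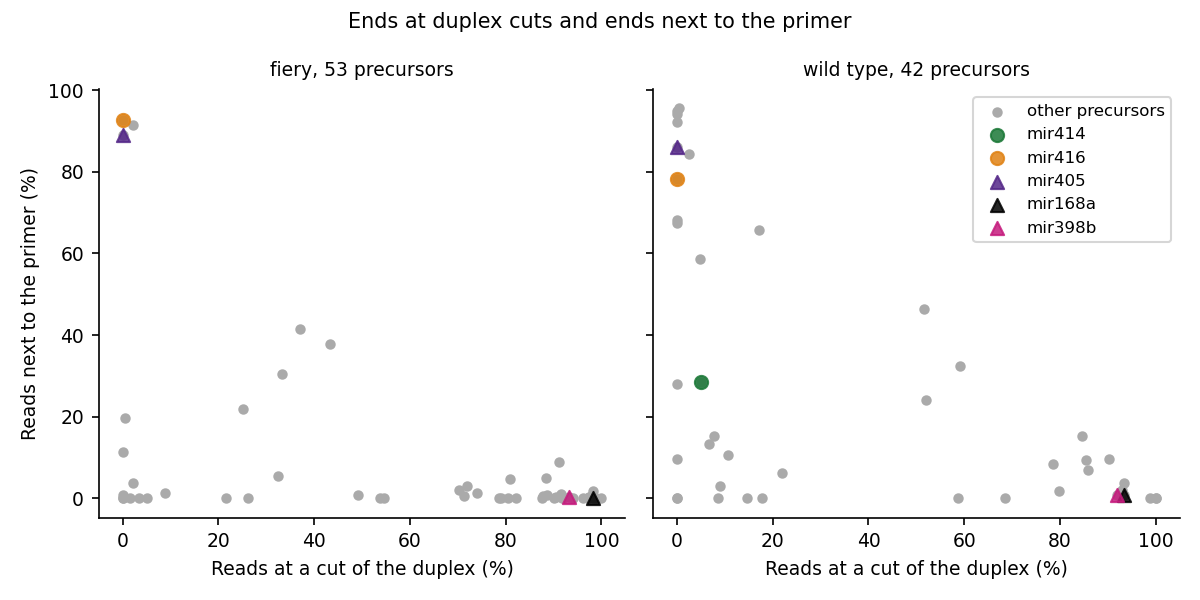
Share of reads next to the primer (%, fragments of at most 30 nt) against share of reads within 1 nt of a duplex cut (%), 1 point per precursor of 30 or more reads for which a primer end could be inferred (53 in the fiery panel, 42 in the wild-type panel). miR416 sits at the upper left in both libraries beside mir405, mir168a and mir398b sit at the lower right, and miR414, with enough reads only in wild type, sits at 5.04% and 28.6%.

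By the summed difference of 3 shares (next to the primer, at an annotated cut, at the main end), miR416 was most like mir405, a set of repeated loci, over both libraries and 28 candidate precursors. The difference summed to 25.2 percentage points, against 69.3 for mir822 and 145 for mir172a. mir405 had 89.1% next to the primer in fiery and 86.1% in wild type, with 0 reads at a cut. For miR414, with wild type only and 41 candidates, the nearest was mir420 at 6.21 percentage points, followed by mir163 at 39.9 and mir156b at 45.0. mir420 had 43 wild-type reads, of which 27.9% were next to the primer, 14.0% at the main end and 0 at a cut. The 5 other precursors with numbers from 413 to 426 in the files (mir413, mir418, mir419, mir420 and mir426) were looked at after their values were seen. Together they had 39 reads in fiery and 148 in wild type, and 0 of these were at a cut of their duplexes. The Clopper-Pearson upper limits for these counts were 9.03% in fiery and 2.46% in wild type. Next to the primer lay 5 fiery and 102 wild-type reads.

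Both loci held a smaller share of the fiery library than of the wild-type library, by very different amounts. miR414 had 0.0392% of the fiery reads (0.0209 to 0.0670) and 0.981% of the wild-type reads (0.813 to 1.17), a ratio of 0.0399 (0.0207 to 0.0709), or 0.167 with each distinct tag counted once. miR416 had 0.702% (0.615 to 0.798) and 1.63% (1.41 to 1.87), a ratio of 0.430 (0.354 to 0.522). Among the 47 precursors whose libraries summed to at least 100 reads, 38.3% had a share at least 2-fold lower in fiery, so that a ratio below that limit was common.

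The miR416 ratio turned with tag length. All 233 reads in fiery and 193 of 198 in wild type were in tags of at most 35 nt, a class of 7424 reads in fiery and 7954 in wild type over all precursors. Among tags of that length the share of miR416 was 3.14% (2.75 to 3.56) for fiery and 2.43% (2.10 to 2.79) for wild type, a ratio of 1.29 (1.06 to 1.57). The median ratio was 1.12 over the 47 precursors compared with all tags and 1.20 over the 13 compared with tags of at most 35 nt. The lower miR416 share in fiery thus moved with the mix of tag lengths in the libraries, and whether that mix accounts for it was not tested. miR414 stayed lower in fiery with tags of at most 35 nt (3 against 56 reads, ratio 0.0574, 0.0115 to 0.177) and with longer tags (10 against 63 reads, ratio 0.0257, 0.0118 to 0.0505).

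**Figure D4:**
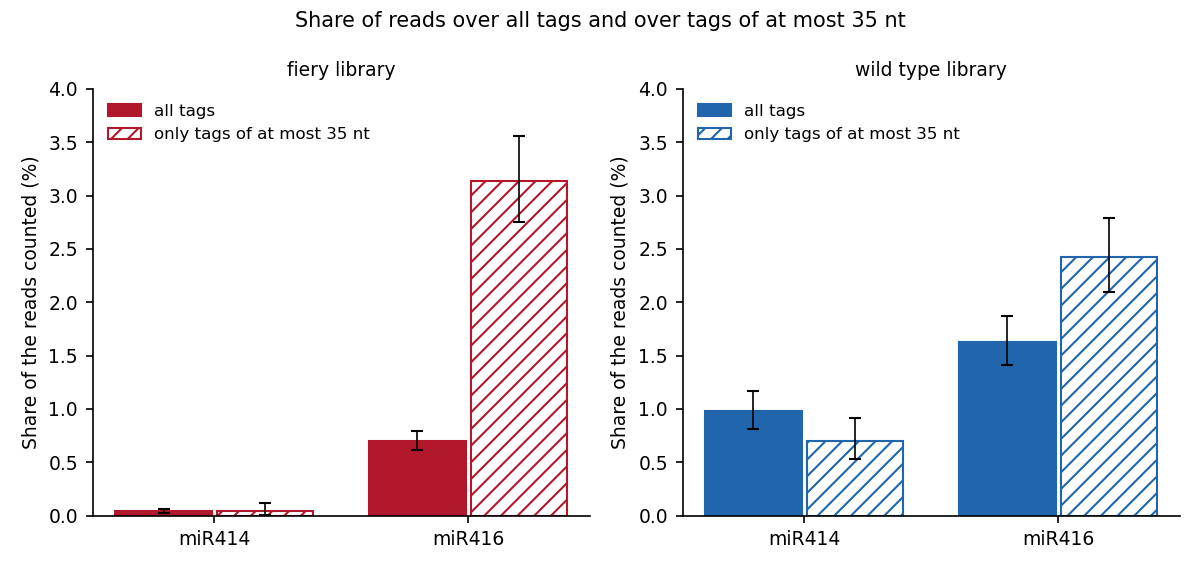
Share of reads (%) of miR414 and miR416 in each library, over all tags (filled bars) and over tags of at most 35 nt only (hatched bars), with 95% Clopper-Pearson error bars. For miR416 the order of the libraries turns from 0.702% against 1.63% to 3.14% against 2.43%, while miR414 stays lower in fiery.

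The sequences set the loci apart from each other. The predicted fold of the MIR414 precursor had a minimum free energy of -19.4 kcal/mol per 100 nt, and only 4 of the 326 annotated precursors folded more weakly by this measure. MIR416, at -35.5, was nearer to the median of -39.4, with 103 weaker. In these folds 16 of the 21 bases of mature miR414 and 21 of 21 of mature miR416 were paired. The opposite strand that the fold gave miR416 was 25 nt long, more than the usual size, which makes its cut positions less certain. Mature miR414 has 9 distinct trinucleotides in 19 windows, where the median of 427 annotated mature RNAs is 16 and 5 have fewer, and miR416 has 14. Neither mature sequence was unique. The 21 bases of miR414 occurred a second time, on chromosome 4 (2332326 to 2332346), opposite the coding sequence of the protein-coding gene AT4G04630. Those of miR416 occurred 4 times in the genome: at the locus itself, at 2 other intergenic places on chromosome 2 (2010320 to 2010340 and 7066898 to 7066918), and on chromosome 1 (7257029 to 7257049). The last lies in an intron of PHT1;8, a member of the phosphate transporter family, on the same strand. A single place in the genome was found for 266 of the 427 mature RNAs.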

How the data were processed

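The labels' protocols describe adaptor ligation to rRNA-depleted RNA, multiplex reverse transcription with precursor-specific primers and 18 PCR cycles. Bowtie and TAIR10 are named in the submitters' processing notes, and the sources used here give no aligner settings. The deposited values are whole-number read counts per tag and precursor name, not normalised by the authors as far as the values show. Tags were matched exactly to both strands of TAIR10.1 with a 26 nt seed, and the match nearest the named precursor was used. All 153 names were found, 8 after a change of suffix, and the mir405 copies were joined. Duplex ends came from the annotated mature RNA and counted within 1 nt. Where only 1 mature RNA was annotated, those of the other strand came from RNAfold with 2 nt overhangs. The primer end was the most frequent 3′ end of tags below the length limit. Single libraries allowed no test between groups. Named precursors were both loci, mir168a, mir398b, mir405 and the 3 nearest patterns each; others named were chosen after their values were seen. The loci, comparisons and lists were chosen with earlier results of these data known. Tag placement, interval coverage and the opposite strand of 1 perfect hairpin were tested on simulated data. The simulated counts held no PCR copies, and the inference of the primer end was not tested. RNAfold was version 2.7.2, and scripts ran in Python 3.11.15 with scipy 1.17.1, numpy 2.4.6, matplotlib 3.10.9 and pandas 2.3.3.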

Additional observations from a re-analysis of the deposited data

How the results depend on the processing

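Of 60 alternative values for miR414 and miR416, 40 stayed within the 95% interval of the reported value (or at the same main end). Many of these had little room to move, so the count does not measure stability. The miR416 share at a cut was 0 under every setting, and the fiery miR414 shares of 13 reads have wide intervals. The miR416 ratio of shares went from 0.430 to 1.29 with only tags of at most 35 nt, which changes its direction, and to 0.347 with distinct tags counted once. The miR414 ratio was 0.167 with distinct tags counted once. Without the most abundant precursor of each library (mir398c and mir172a), the wild-type shares were 1.37% (miR414) and 2.29% (miR416) and the fiery share of miR416 was 0.868%. With single-match tags the wild-type shares were 1.22% and 2.03%. The wild-type miR414 share at a cut was 1.68% at the exact position, 15.1% within 2 nt and 17.6% within 3 nt, while miR416 had 0 reads there under each of these windows. Next to the primer, a limit of 28 nt gave 73.0% (fiery) and 62.6% (wild type) for miR416, and a limit of 35 nt gave 100% and 97.5%, and 47.1% for miR414 in wild type. With distinct tags counted once these shares were 55.6% and 50% for miR416 and 16.7% for miR414, and the miR414 main end moved to nt 98. No miR416 ratio was possible with only longer tags, which had 0 fiery reads, and no main end for fiery miR414. With 13 fiery reads, miR414 ends there are barely sampled. No paired analysis was possible because each group has 1 library.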
